A study of Mus musculus with 6 samples.

Results

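Selenium-enriched phycocyanin with laser irradiation was compared with laser irradiation alone in Lewis lung carcinoma (LLC) tumors, a transplantable mouse lung cancer that grows under the skin of C57BL/6 mice. The comparison used the 2 samples of the SePC-La group and the 2 samples of the Laser group, 4 of the 6 samples of the series, and was chosen by these group names. Gene expression was measured by RNA sequencing of the tumors. Of 21899 genes listed, 10853 had a mean of at least 1 FPKM (fragments scaled to exon length and to the sample total) over the 6 samples and were tested on the scale log2(FPKM + 1), on which the fold change of a weakly expressed gene comes out too small.

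All groups were male C57BL/6 mice that carried LLC cells with a luciferase gene, injected subcutaneously near the axilla, and all were irradiated, per the labels at 620 nm for 10 min. SePC-La mice were injected in the tumor with selenium-enriched phycocyanin, per the labels every 5 days, and were irradiated 4 h after each injection. The PC-La group received phycocyanin without added selenium on the same schedule, and the Laser group received saline, per the methods of the study, with the irradiation. Those methods give another wavelength and injection interval than the labels, and which was used for the sequenced tumors is not known. Neither a tumor without irradiation nor one given selenium alone was among the sequenced samples, so what laser irradiation does by itself was not measured. The labels do not say whether the 2 samples of a group came from separate mice, and the p-values measure only the spread between these samples. As a check of the tissue, the mesenchymal filament gene Vim stood at 897 and 880 FPKM in Laser and 974 and 1000 in SePC-La, Krt8 at 83.1 and 114 in Laser and 78.1 and 113 in SePC-La, and Hmga2 at 102 and 119 in Laser and 138 and 108 in SePC-La. Of 22 listed tumor cell and epithelial genes, 9 had a mean under 1 FPKM, Epcam and Cdh1 among them, so these values do not identify the tumor cells. The lung surfactant gene Sftpc was at 0 in both SePC-La samples and at 0.369 and 0 in Laser. Of 15 listed lung epithelial markers, 3 had a mean of at least 1 FPKM. The list summed to 13.3 and 14.8 FPKM in Laser and 8.06 and 13.2 in SePC-La.

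Recovered read totals ran from 14447792 to 17649489 per sample. The Laser samples lay further apart than those of the other groups: 565 tested genes (5.21%) differed more than 2-fold between Laser 1 and Laser 2, against 241 (2.22%) within SePC-La and 21 (0.194%) within PC-La. List medians are therefore given against Laser 1 and Laser 2 separately as well as against their mean. Summed over the listed markers, skeletal muscle genes reached 81.8 FPKM in Laser 1 and 300 in Laser 2 against 61.2 and 81.5 in SePC-La. Mast cell, eosinophil and basophil markers summed to 199 and 10.0 FPKM in Laser and 16.9 and 143 in SePC-La, and fibroblast and mural cell genes to 1155 and 404 in Laser and 307 and 692 in SePC-La. In bulk tumor RNA, fewer cells of a type and less RNA per cell cannot be told apart.

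Phycocyanin is a light-absorbing protein of the cyanobacterium Spirulina that carries the bilin pigment phycocyanobilin. In photodynamic therapy a pigment of this kind takes up light and passes the energy to oxygen, and the reactive oxygen that forms damages cells and blood vessels nearby. Cells answer loss of oxygen through hypoxia-inducible factor (HIF), shortage of amino acids or protein damage through the transcription factor ATF4, and injury through NF-kB, and dying tissue draws in neutrophils. Selenium is built as selenocysteine into antioxidant enzymes such as the glutathione peroxidases.

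The criterion used by the study, an absolute log2 fold change over 1 with an unadjusted p under 0.05, was met by 74 genes (0.682%) between SePC-La and Laser. Of these, 59 (0.544% of the genes tested) were higher and 15 (0.138%) lower in SePC-La. A gene is called changed here, risen or fallen, only where it met this criterion. No gene passed a Benjamini-Hochberg adjusted p of 0.05 in limma (0 of 10853), the smallest adjusted p being 0.376, while 1318 genes had an unadjusted p under 0.05, 532 of them higher (4.9%) and 786 lower (7.24%). This fit also draws its spread from PC-La, whose 2 samples lay closest together. In limma on only the 4 samples compared, 700 genes had an unadjusted p under 0.05, and the smallest adjusted p was 0.735. The criterion was then met by 48 higher and 12 lower genes. With limma voom on the recovered reads, 0 genes passed the adjusted threshold as well and 1413 had an unadjusted p under 0.05, and the criterion was met by 84 higher and 46 lower genes. A fit without 1 of the 4 samples leaves 1 sample in its group, and the p-values then hold no spread of that group. Counts of genes from such fits are therefore not given. Over all tested genes the median log2 difference was -0.06, or -0.08 against Laser 1 and -0.04 against Laser 2. Both SePC-La values lay above both Laser values in 1629 genes (15%) and below both in 2780 (25.6%). Against PC-La, 128 genes (1.18%) were higher and 195 (1.8%) lower in SePC-La at the criterion.

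All 59 higher genes exceeded each Laser sample, and 23 of them by more than 1 on the log2 scale against each. The difference was the larger one against Laser 2 for 51 of the 59. Of the 15 lower genes, 9 lay more than 1 below each Laser sample, and for 13 the gap to Laser 2 was the larger. The criterion picked these genes for their difference in the same samples, so these counts are a description and no support. Of the 74 genes, 9 belong to the 15 target genes of the study, and 8 of the 15 lower genes belong to the skeletal muscle list.

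**Figure D1:**
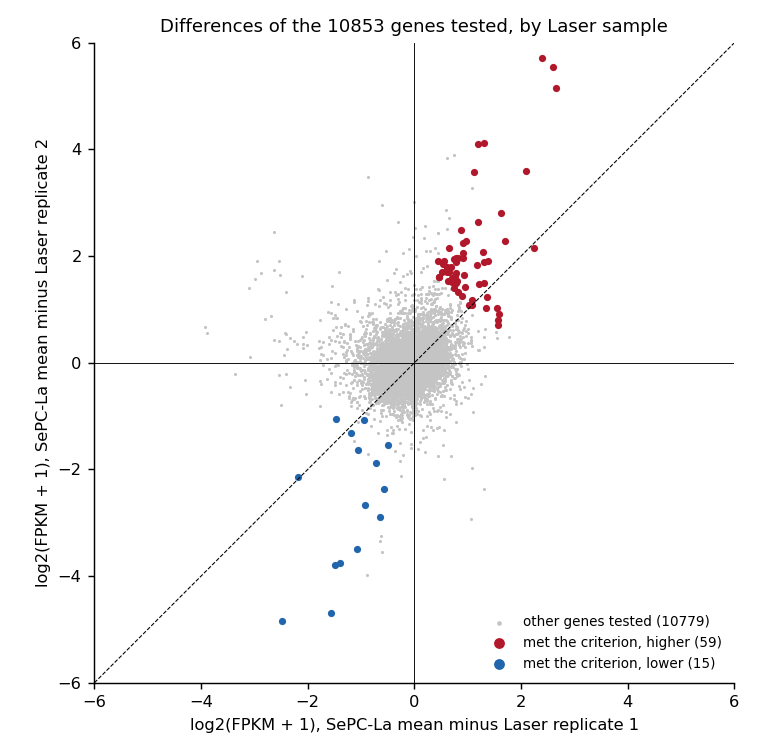
Each point is a tested gene, with the mean of the 2 SePC-La samples minus Laser 1 on the x axis and minus Laser 2 on the y axis, both as log2(FPKM + 1). The 59 higher genes lie above 0 on both axes and the 15 lower genes below 0 on both, most of them further out against Laser 2. They were picked for their difference in these same samples.

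Prss22, a secreted trypsin-like serine protease gene on chromosome 17, had 6.73 and 4.15 FPKM in Laser and 20.1 and 16.5 in SePC-La. Its log2 difference was 1.61 (standard error 0.22, adjusted p = 0.376 from limma), 1.31 against Laser 1 and 1.90 against Laser 2. Upp1, which encodes the uridine phosphorylase that splits uridine into uracil and ribose phosphate, had 14.4 and 12.6 FPKM in Laser and 41.8 and 32.9 in SePC-La. Upp1 rose by 1.40 (standard error 0.20), and its differences from Laser 1 and from Laser 2 were of similar size. In PC-La it stood at 9.92 and 14.2 FPKM, in the range of Laser.

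Ido1 encodes the enzyme that opens tryptophan toward kynurenine and limits T cells, and Ubd (FAT10) encodes a ubiquitin-like protein induced by interferon. Ido1 had 0.802 and 0.497 FPKM in Laser, 3.91 and 2.57 in SePC-La and 1.23 and 1.28 in PC-La, a log2 difference of 1.35 (standard error 0.22) from Laser. Ubd had 8.54 and 8.58 FPKM in Laser and 20.8 and 17.7 in SePC-La, and was also above Laser in PC-La at 16.5 and 22.8. Of the pair, Ubd had overlapping values in the 2 phycocyanin groups while Ido1 was highest in both SePC-La samples. Ido1 passed the filter of 1 FPKM through those SePC-La samples, so its difference is a description and no support.

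Rhov and Rnd1 encode small GTPases that act on the actin skeleton. Rhov had 1.31 and 0.333 FPKM in Laser and 4.39 and 4.88 in SePC-La, and Rnd1 had 1.46 and 1.37 in Laser and 4.76 and 3.36 in SePC-La. The SePC-La values of Rhov alone carry it past the filter on the mean, so its difference is a description and no support. Adm2, a peptide of the adrenomedullin family that relaxes vessels, had 2.21 and 3.62 FPKM in Laser, 9.65 and 7.28 in SePC-La and 0.542 and 0.566 in PC-La. Adm2 was thus lowest in PC-La and highest in SePC-La, with a log2 difference of 1.29 (standard error 0.22) between SePC-La and Laser. Plac8, a gene of myeloid and dedifferentiating epithelial cells, had a mean of 10.5 ± 2.62 FPKM in Laser and 25 ± 2.74 in SePC-La (SD, n = 2 each).

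The region before the start of Upp1 is shown because Upp1 was among the genes with the smallest p and its promoter holds a 7-base AP-1 motif. Capitals mark the match to TGACTCA, read on the opposite strand, which begins 140 bases before the start shown. RefSeq lists further starts of Upp1, one with the same match 45 bases before it and one with no match in its window. The sequence is from RefSeq (GRCm38.p6), plus strand.

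Upp1, chr11:9117853-9118102: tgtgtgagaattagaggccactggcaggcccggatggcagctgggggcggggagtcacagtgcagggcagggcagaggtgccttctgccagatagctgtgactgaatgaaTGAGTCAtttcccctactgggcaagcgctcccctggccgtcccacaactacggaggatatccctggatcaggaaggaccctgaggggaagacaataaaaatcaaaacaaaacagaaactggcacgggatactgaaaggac

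The motif TGACTCA was searched on both strands in the window from 250 bases before to 50 bases after each RefSeq start. It was found for 6 of the 46 higher genes with a promoter in the table (13%) and for 4.59% of all tested genes with one (400 of 8710). The match is a description of the letters, and binding of a factor was not measured.

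Across 70 gene lists, 69 had at least 3 tested members. A list is said to hold higher against each control sample where its median was positive and above the median of all tested genes. It is said to hold lower where its median was negative and below that of all tested genes. Both conditions had to be met against Laser 1 alone and against Laser 2 alone. By that rule 40 lists were higher in SePC-La, 11 were lower and 18 did neither, and in 16 lists the medians had opposite signs against the 2 Laser samples. The lists were written with earlier results of these data known, so their medians are given as descriptions. Target genes of the study that belong to a list were kept in its counts and median. All 14 tested target genes lay above both Laser samples and 9 met the criterion, so list counts that include them are no support.

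**Figure D2:**
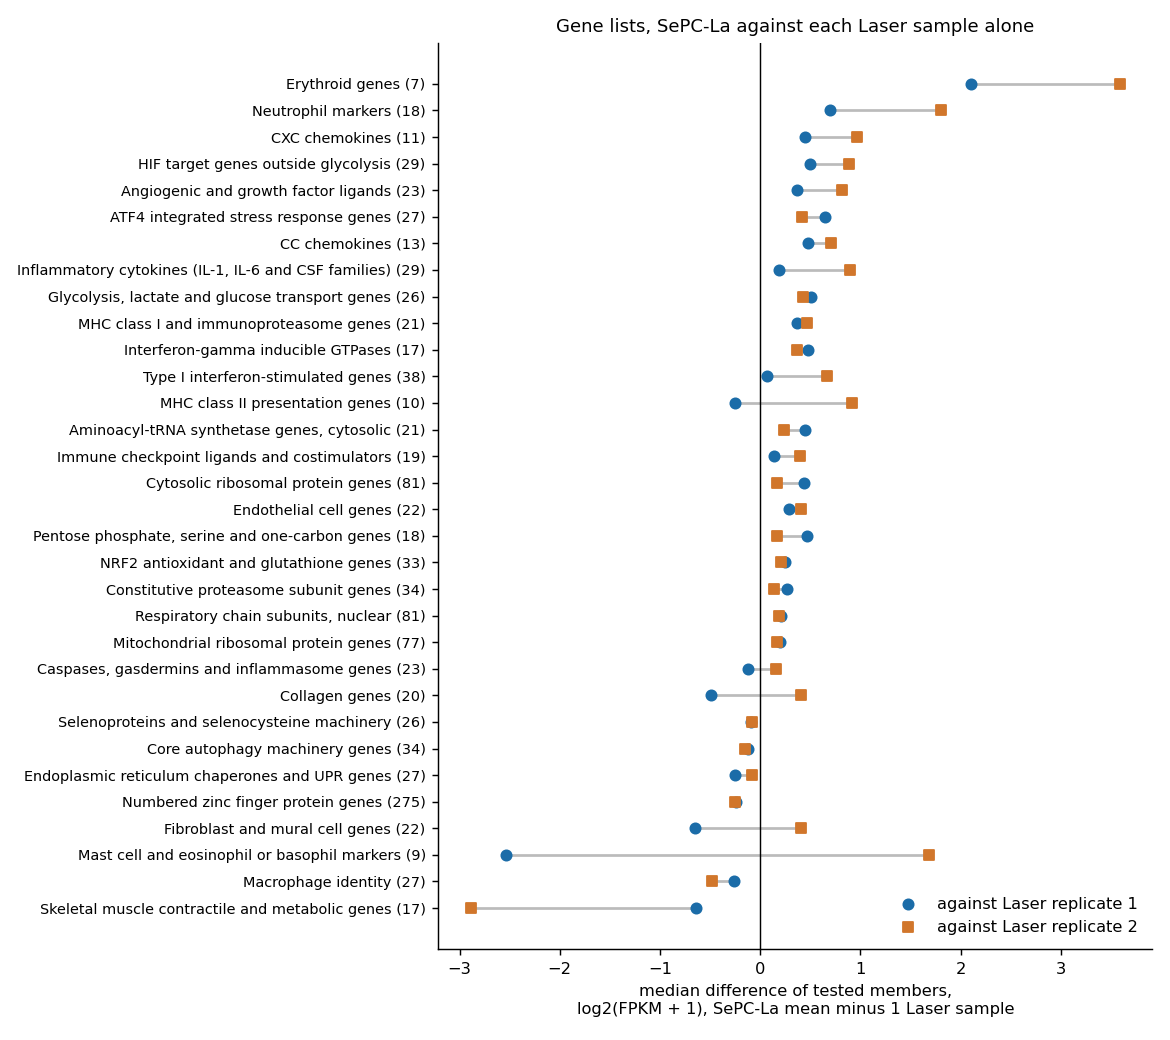
Each row is a gene list, with the median log2(FPKM + 1) difference of its tested members on the x axis, the SePC-La mean minus Laser 1 and minus Laser 2 as separate points. HIF target, glycolysis, ATF4 and ribosomal protein lists sit to the right of 0 against both Laser samples, zinc finger genes to the left, and mast cell, collagen and fibroblast lists on opposite sides.

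Genes of the hypoxia response were higher in both SePC-La samples. Of 29 tested HIF target genes outside glycolysis (33 in the table), 7 met the criterion, all higher, and 17 (58.6%) had an unadjusted p under 0.05 on the higher side and 0 on the lower, against 4.9% and 7.24% of all genes. Both SePC-La values were above both Laser values in 20 of the 29 (69%). The list median was 0.72, or 0.50 against Laser 1 and 0.89 against Laser 2. The median of PC-La minus Laser was -0.10.

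Egln3, an oxygen-sensing prolyl hydroxylase that HIF induces and that marks HIF for destruction, had 65.0 and 65.8 FPKM in Laser, 120 and 112 in SePC-La and 67.7 and 63.8 in PC-La. The 4 samples without selenium-enriched phycocyanin lay within a few FPKM of each other, and SePC-La differed from Laser by 0.81 on the log2 scale (standard error 0.12; limma, adjusted p = 0.376), under the fold change of the criterion. Ier3, an early response gene that modulates survival, had 159 and 95.8 FPKM in Laser and 289 and 266 in SePC-La and rose by 1.16 (standard error 0.24). Hmox1, the heme-degrading oxygenase, was among the most expressed members of the list. It had 265 and 117 FPKM in Laser, 369 and 315 in SePC-La and 83.4 and 50.4 in PC-La, with a log2 difference from Laser of 0.95 (standard error 0.43) that did not pass. Bnip3, a mitophagy receptor named after its values were seen, had 19.9 and 18.7 FPKM in Laser and 38.6 and 32.5 in SePC-La.

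Hilpda, Adm and Angptl4, also named after their values were seen, encode a lipid droplet protein, a vessel-relaxing peptide and a lipase inhibitor that hypoxia induces. Hilpda had 57.3 and 22.2 FPKM in Laser, 130 and 97.1 in SePC-La and 24.7 and 19.9 in PC-La, a log2 difference of 1.63 (standard error 0.44) from Laser. It was 0.96 against Laser 1 and 2.29 against Laser 2. Adm had 67.6 and 30.0 FPKM in Laser and 154 and 107 in SePC-La. Angptl4 had 8.53 and 2.48 FPKM in Laser and 19.9 and 21.8 in SePC-La. In all of them Laser 2 was the lowest of the 4 samples compared, so the size of the difference depended on the Laser sample while the order of the groups did not.

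Glycolysis genes were higher by smaller and more even amounts. All 26 members were tested: 15 (57.7%) had an unadjusted p under 0.05 on the higher side and 0 on the lower, both SePC-La values were above both Laser values in 18, and 1 met the criterion, Slc2a1, one of the target genes of the study. The list median was 0.48, 0.51 against Laser 1 and 0.43 against Laser 2, and it was -0.10 for PC-La minus Laser. Here the 2 Laser samples gave nearly the same value.

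Slc16a3, the lactate exporter MCT4, had 8.85 and 8.20 FPKM in Laser, 18.6 and 15.8 in SePC-La and 6.85 and 7.39 in PC-La, with a log2 difference of 0.93 (standard error 0.14) from Laser. Pgk1, the phosphoglycerate kinase of glycolysis, had 331 and 356 FPKM in Laser, 686 and 540 in SePC-La and 300 and 301 in PC-La, with a difference of 0.83 (standard error 0.15). Ldha, which makes lactate from pyruvate, had 367 and 414 FPKM in Laser and 603 and 565 in SePC-La. For each of these genes the lower SePC-La sample was above every Laser and PC-La sample. Pkm, the last enzyme of the pathway, had 424 and 421 FPKM in Laser, 605 and 585 in SePC-La and 417 and 419 in PC-La.

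Promoter sequences of Hilpda and Slc16a3 are shown because both genes differ strongly between the groups and both hold the core of the hypoxia response element. Capitals mark ACGTG, searched on both strands from 250 bases before to 50 bases after each RefSeq start (GRCm38.p6, both genes on the plus strand). The match of Hilpda begins 43 bases before its start, and a further start listed for Hilpda had no match.

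Hilpda, chr6:29272376-29272625: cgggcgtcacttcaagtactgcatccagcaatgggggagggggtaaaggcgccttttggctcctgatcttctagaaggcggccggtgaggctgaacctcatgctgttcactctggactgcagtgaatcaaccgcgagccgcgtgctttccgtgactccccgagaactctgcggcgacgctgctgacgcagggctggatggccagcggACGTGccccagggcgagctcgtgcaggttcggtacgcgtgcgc

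Slc16a3, chr11:120948817-120949066: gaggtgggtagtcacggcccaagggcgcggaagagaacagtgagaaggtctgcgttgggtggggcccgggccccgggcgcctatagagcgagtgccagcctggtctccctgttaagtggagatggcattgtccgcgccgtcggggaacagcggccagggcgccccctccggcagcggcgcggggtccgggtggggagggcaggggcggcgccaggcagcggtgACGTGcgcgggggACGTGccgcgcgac

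The motif was found for 18 of the 21 HIF target genes with a promoter in the table (85.7%), for 16 of 25 glycolysis genes (64%), and for 30.1% of all tested genes with one (2621 of 8710). Of all 32851 promoter windows, a share of 19.6% held it. The lists were made of genes known to respond to HIF, and the share says nothing of binding in these tumors. Among the higher genes at the criterion the share was 26.1% (12 of 46).

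**Figure D3:**
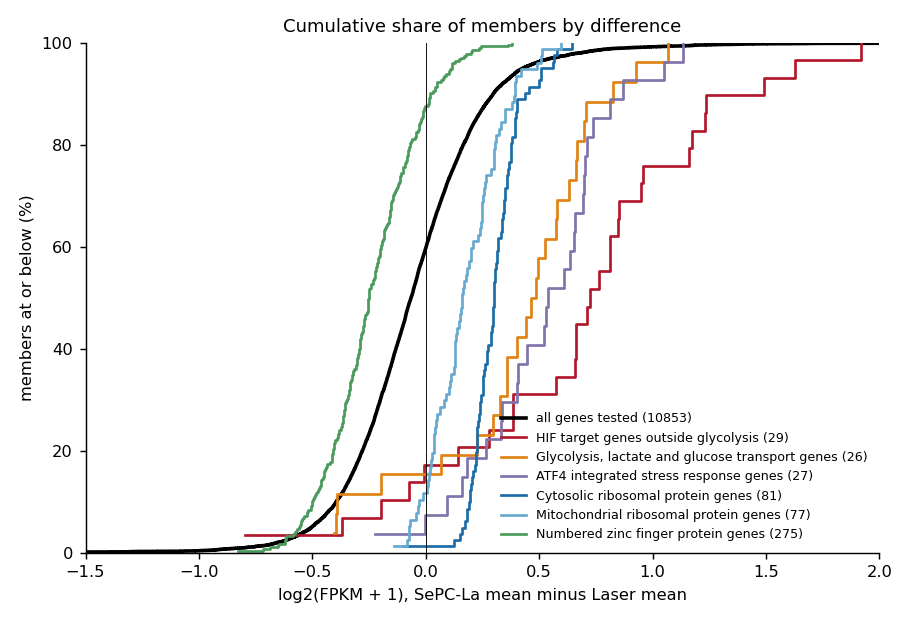
The share of list members (y axis, percent) at or below a given difference between the SePC-La and Laser means in log2(FPKM + 1) (x axis) is drawn for 6 lists and for all 10853 tested genes. Against the all-gene curve, the numbered zinc finger genes are shifted to the left, and the ribosomal, glycolysis, ATF4 and HIF target genes to the right.

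Ligands that act on vessels and tissue growth included several higher genes. Of 23 tested angiogenic and growth factor ligands (30 in the table), 3 rose and 0 fell at the criterion (Areg, and Vegfa and Angptl4, which are also HIF list members), 8 (34.8%) were higher and 1 lower at an unadjusted p under 0.05, and the list median was 0.65, 0.37 against Laser 1 and 0.82 against Laser 2. Without the filter on low values it was 0.24. Areg, the EGF receptor ligand amphiregulin, had 22.8 and 10.1 FPKM in Laser and 41.7 and 38.2 in SePC-La and rose by 1.33 (standard error 0.35). Hbegf and Pdgfa, a ligand of the EGF receptor and a ligand of the PDGF receptor, were higher without reaching the criterion. Pdgfa had 8.46 and 6.10 FPKM in Laser and 14.8 and 11.7 in SePC-La. Ccn1, a matrix protein that binds integrins, had 41.5 and 32.4 FPKM in Laser and 78.1 and 43.0 in SePC-La.

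Of 22 tested endothelial genes (27 in the table), 7 (31.8%) were higher and 0 lower at an unadjusted p under 0.05 and 2 met the criterion, with a median of 0.29 that was 0.29 against Laser 1 and 0.41 against Laser 2. Apln, the peptide apelin made by sprouting endothelium, had 15.1 and 10.2 FPKM in Laser, 56.0 and 30.1 in SePC-La and 15.4 and 18.7 in PC-La, a rise of 1.65 (standard error 0.32) over Laser. Angpt2, which loosens the vessel wall, had 4.72 and 5.51 FPKM in Laser and 15.6 and 7.75 in SePC-La. Both were highest in SePC-La 1. Eng, an endothelial TGF-beta coreceptor and one of the most expressed members, had 25.4 and 19.4 FPKM in Laser and 17.5 and 22.3 in SePC-La, overlapping values.

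ATF4 target genes formed a further higher group. Of 27 tested (31 in the table), 12 (44.4%) had an unadjusted p under 0.05 on the higher side and 0 on the lower, 18 (66.7%) had both SePC-La values above both Laser values, and 1 met the criterion. The median was 0.54, 0.65 against Laser 1 and 0.42 against Laser 2, and it was -0.26 for PC-La minus Laser. Atf4 itself, the factor translated when ribosome initiation is slowed, had 114 and 112 FPKM in Laser, 201 and 170 in SePC-La and 90.2 and 122 in PC-La, a log2 difference of 0.70 (standard error 0.18) from Laser. Ppp1r15a (GADD34), which ends the response by restoring initiation, had 9.49 and 9.68 FPKM in Laser and 16.4 and 14.5 in SePC-La. Slc3a2, the heavy chain of several amino acid exchangers, had 60.2 and 59.5 FPKM in Laser and 89.3 and 83.6 in SePC-La. In these 3 genes the Laser samples were close together and both SePC-La samples were higher. Sqstm1, an autophagy receptor, differed little, at 137 and 139 FPKM in Laser and 163 and 145 in SePC-La.

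Trib3, a pseudokinase that feeds back on ATF4, was the member at the criterion, with 7.01 and 13.6 FPKM in Laser and 29.6 and 17.4 in SePC-La. Cth, the cystathionine lyase that makes cysteine, met the criterion outside the list, with 2.17 and 1.99 FPKM in Laser and 7.69 and 4.19 in SePC-La. Both were named after their values were seen.

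Serine and one-carbon metabolism showed the same order. Of 18 tested genes of pentose phosphate, serine and one-carbon metabolism, 4 (22.2%) were higher and 0 lower at an unadjusted p under 0.05, with a median of 0.28, 0.47 against Laser 1 and 0.17 against Laser 2. These 4, Phgdh, Psat1, Shmt2 and Mthfd2, act in serine and mitochondrial folate metabolism and are also members of the ATF4 list. Phgdh, the first enzyme of serine synthesis, had 90.1 and 134 FPKM in Laser, 183 and 164 in SePC-La and 74.5 and 88.1 in PC-La. Mthfd2, a mitochondrial folate enzyme, had 23.4 and 24.3 FPKM in Laser and 57.6 and 34.1 in SePC-La. Shmt2, the mitochondrial enzyme that takes a carbon from serine, had 74.9 and 89.5 FPKM in Laser and 167 and 106 in SePC-La.

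All 21 cytosolic aminoacyl-tRNA synthetase genes, which load transfer RNAs with amino acids, had a mean above that of Laser, and 13 (61.9%) had both SePC-La values above both Laser values, but 3 (14.3%) had an unadjusted p under 0.05. The median was 0.31, 0.45 against Laser 1 and 0.24 against Laser 2. Cars had 9.37 and 8.54 FPKM in Laser and 17.5 and 11.8 in SePC-La, and Sars 32.1 and 35.9 in Laser and 64.0 and 41.6 in SePC-La. Gars, at 72.4 and 90.4 FPKM in Laser and 122 and 93.0 in SePC-La, did not pass. For all 3 SePC-La 1 had the highest value of the 6 samples.

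The promoter of Chac1, a glutathione-degrading enzyme of this list, is shown for its match to TGATGNAA, the core of the composite element of C/EBP and ATF factors. This motif and Chac1 were picked after the data were seen. Chac1 had 1.79 and 4.40 FPKM in Laser and 10.9 and 4.44 in SePC-La and did not pass, with SePC-La 2 almost level with Laser 2. The match, in capitals and read on the opposite strand, begins 193 bases before the start (RefSeq, GRCm38.p6, plus strand).

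Chac1, chr2:119350992-119351241: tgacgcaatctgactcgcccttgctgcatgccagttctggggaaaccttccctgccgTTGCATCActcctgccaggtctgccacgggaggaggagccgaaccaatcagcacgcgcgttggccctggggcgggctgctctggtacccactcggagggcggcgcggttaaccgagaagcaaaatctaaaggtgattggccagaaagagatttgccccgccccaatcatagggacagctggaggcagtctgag

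TGATGNAA was found for 7 of 24 ATF4 list genes with a promoter in the table (29.2%), for 5 of 14 synthetase genes (35.7%) and for 2.72% of all tested genes with one (237 of 8710). The ATF4 list was made of known targets of the factor.

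Genes that build proteins and degrade them were higher by small amounts in most members. Of 81 tested cytosolic ribosomal protein genes (85 in the table), 80 had a higher mean in SePC-La, 54 (66.7%) had both SePC-La values above both Laser values, and 25 (30.9%) had an unadjusted p under 0.05, all of them higher. The median was 0.30, 0.43 against Laser 1 and 0.16 against Laser 2, and 0 met the criterion. With quantile normalization the median was 0.077. The share of all FPKM taken by ribosomal protein genes was 13.5% in Laser 1, 16.2% in Laser 2, and 18.1% and 16.5% in SePC-La, so the gap to Laser 2 was narrow. Rps29, a small-subunit protein, had 216 and 190 FPKM in Laser and 286 and 320 in SePC-La. Rpl37, a large-subunit protein, had 217 and 227 FPKM in Laser, 303 and 329 in SePC-La and 228 and 225 in PC-La. Copies and pseudogenes of ribosomal protein genes share sequence, so single values are uncertain.

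Mitochondrial ribosomal protein genes had a median of 0.16 over 77 tested genes, 0.20 against Laser 1 and 0.16 against Laser 2 (0.099 without SePC-La 2), with 14 (18.2%) higher and 0 lower at an unadjusted p under 0.05. Mrps28 had 23.4 and 26.4 FPKM in Laser and 32.6 and 39.6 in SePC-La. The 34 constitutive proteasome genes had a median of 0.21, 0.27 against Laser 1 and 0.14 against Laser 2, and 4 (11.8%) were higher at an unadjusted p under 0.05. Psmd3, a subunit of the regulatory cap, had 28.9 and 28.5 FPKM in Laser, 39.8 and 37.8 in SePC-La and 27.3 and 28.0 in PC-La, and its SePC-La values stood clear of the other 4 samples. Of 81 nuclear-coded respiratory chain genes, 10 (12.3%) were higher and 0 lower at an unadjusted p under 0.05, with a median of 0.19, 0.21 against Laser 1 and 0.19 against Laser 2. Uqcrq, of complex III, had 30.2 and 40.9 FPKM in Laser and 54.2 and 49.9 in SePC-La. The 12 tested mitochondrially coded respiratory genes did not hold, with a median of -0.16, 0.04 against Laser 1 and -0.41 against Laser 2. The mitochondrial share of all FPKM was 7.59% and 10.1% in Laser and 7.32% and 7.61% in SePC-La.

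Numbered zinc finger protein genes, most of which encode DNA-binding repressors, went the other way as a group. Of 275 tested (396 in the table), 140 (50.9%) had both SePC-La values below both Laser values against 25.6% of all genes, and 9 (3.27%) had both above. At an unadjusted p under 0.05, 51 (18.5%) were lower and 1 higher, and 0 met the criterion. The median was -0.25, -0.24 against Laser 1 and -0.25 against Laser 2, and -0.003 for PC-La minus Laser. Zfp758 had 5.50 and 5.87 FPKM in Laser, 2.93 and 3.20 in SePC-La and 4.73 and 6.22 in PC-La, a log2 difference of -0.72 (standard error 0.16) from Laser. Zfp266 had 9.68 and 10.5 FPKM in Laser, 6.55 and 6.65 in SePC-La and 9.46 and 9.77 in PC-La. In both genes the SePC-La values lay under those of all 4 other samples. Zfp207, the most expressed member, had 45.1 and 44.1 FPKM in Laser and 35.7 and 39.0 in SePC-La and did not pass. Zinc finger genes lie in clusters of similar copies, which limits the certainty of single members. The median of the group was -0.18 with median-ratio scaling and -0.15 with quantile normalization.

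Neutrophil genes had the highest median of the immune cell lists. Of 18 tested markers (27 in the table), 7 met the criterion and 8 (44.4%) had an unadjusted p under 0.05, all higher, and both SePC-La values were above both Laser values in 13 (72.2%). The median was 1.08, 0.70 against Laser 1 and 1.80 against Laser 2, and -0.24 for PC-La minus Laser. Without the filter on low values it was 0.65. S100a9 and Lcn2, target genes of the study, are among the tested markers. S100a8, a calcium-binding protein of neutrophil cytosol, had 22.6 and 9.39 FPKM in Laser, 61.8 and 82.7 in SePC-La and 25.6 and 13.2 in PC-La, and rose by 2.21 (standard error 0.48) over Laser. Clec4e (Mincle), a receptor for damaged cells, had 6.01 and 5.52 FPKM in Laser and 8.74 and 10.8 in SePC-La. Clec4d, a related receptor, had 22.3 and 36.1 FPKM in Laser, 39.0 and 40.9 in SePC-La and 8.40 and 7.94 in PC-La, so Laser 2 was close to SePC-La. The 9 markers under the filter include the granule genes Mpo, Elane, Ltf and Camp and the surface marker Ly6g. The summed level of all listed markers was 244 and 122 FPKM in Laser, 465 and 623 in SePC-La and 198 and 127 in PC-La.

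In the chemokine and cytokine lists the share higher at an unadjusted p under 0.05 was above the 4.9% of all genes, on small counts. The Laser samples lay far apart in several of these genes. Of 11 tested CXC chemokines (15 in the table), all 11 had a higher mean in SePC-La, but 2 (18.2%) had an unadjusted p under 0.05 and 1 met the criterion, and the median was 0.79, 0.44 against Laser 1 and 0.97 against Laser 2. It was 0.25 without SePC-La 2. Cxcl1, a ligand of the neutrophil receptor CXCR2, had 55.6 and 17.4 FPKM in Laser, 80.4 and 131 in SePC-La and 35.0 and 29.1 in PC-La. It rose by 1.68 (standard error 0.55), 0.88 against Laser 1 and 2.49 against Laser 2. Cxcl10 and Cxcl9, which draw T cells, did not pass. Cxcl9 had 32.7 and 42.6 FPKM in Laser, 44.6 and 65.5 in SePC-La and 77.8 and 129 in PC-La. Its highest values were thus in PC-La.

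The promoter of Cxcl1 is shown for its NF-kB consensus, in capitals, which 2 overlapping readings of the motif cover (RefSeq, GRCm38.p6, plus strand).

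Cxcl1, chr5:90890995-90891244: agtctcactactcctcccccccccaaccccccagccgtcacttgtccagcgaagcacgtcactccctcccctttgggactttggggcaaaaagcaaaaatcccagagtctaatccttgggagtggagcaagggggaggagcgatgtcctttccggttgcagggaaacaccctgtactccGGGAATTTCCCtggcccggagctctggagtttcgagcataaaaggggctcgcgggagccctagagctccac

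The consensus was found for 4 of the 9 CXC chemokine genes with a promoter in the table (44.4%), for 10 of 46 higher genes (21.7%) and for 12.2% of all tested genes with one (1064 of 8710). For CC chemokine genes the share was 14.3% (1 of 7), and for the IL-1, IL-6 and CSF families 26.1% (6 of 23). Binding of a factor was not measured.

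Of 13 tested CC chemokines (18 in the table), 3 rose and 4 (30.8%) were higher at an unadjusted p under 0.05, with a median of 0.49, 0.47 against Laser 1 and 0.71 against Laser 2. It was 0.076 without the filter on low values and 0.23 without SePC-La 2. Ccl4, which draws monocytes and T cells, had 12.5 and 3.78 FPKM in Laser and 22.7 and 18.0 in SePC-La. Ccl6, one of the most expressed, had 79.9 and 242 FPKM in Laser and 164 and 148 in SePC-La, between the Laser samples. Of 29 tested genes of the IL-1, IL-6 and CSF families (35 in the table), 4 rose, 6 (20.7%) were higher and 1 lower at an unadjusted p under 0.05, and the median was 0.48, 0.18 against Laser 1 and 0.89 against Laser 2. Il1rn, the receptor antagonist that blocks IL-1, had 5.03 and 2.64 FPKM in Laser and 12.3 and 8.84 in SePC-La and rose by 1.29 (standard error 0.28). Il6st (gp130), the signaling chain of IL-6 receptors, was the lower one, with 21.2 and 18.7 FPKM in Laser and 12.2 and 13.5 in SePC-La. Socs3, a feedback inhibitor of that chain, had 69.5 and 36.9 FPKM in Laser and 77.4 and 91.7 in SePC-La.

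RNA of genes for antigen presentation by MHC class I was higher in SePC-La. All 21 listed genes were tested: 13 (61.9%) had an unadjusted p under 0.05, all higher, 16 (76.2%) had both SePC-La values above both Laser values, and 0 met the criterion. The median was 0.41, 0.36 against Laser 1 and 0.46 against Laser 2, and 0.48 for PC-La minus Laser. H2-K1, a class I heavy chain, had 228 and 184 FPKM in Laser, 345 and 364 in SePC-La and 282 and 309 in PC-La, a log2 difference of 0.79 (standard error 0.15) from Laser. B2m, the light chain, had 2180 and 2049 FPKM in Laser, 2820 and 2796 in SePC-La and 2859 and 3049 in PC-La. Tap1, the peptide pump, had 15.1 and 17.6 FPKM in Laser and 29.1 and 26.1 in SePC-La. Both phycocyanin groups lay above Laser in H2-K1 and B2m, and they share the Laser samples as control. Class I heavy chain genes are near copies, so reads may be split between them.

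Interferon-gamma inducible GTPases had a median of 0.39 over 17 genes, 0.48 against Laser 1 and 0.37 against Laser 2, with 6 (35.3%) higher and 0 lower at an unadjusted p under 0.05, and a median of 1.00 for PC-La minus Laser. Igtp, a GTPase that attacks pathogen vacuoles, had 45.7 and 56.7 FPKM in Laser and 88.2 and 85.5 in SePC-La. Type I interferon-stimulated genes had a median of 0.38 over 38 genes that rested mainly on Laser 2: it was 0.07 against Laser 1 and 0.66 against Laser 2, and 0.22 without SePC-La 2. Bst2 (tetherin), which holds virus at the cell surface, had 114 and 100.0 FPKM in Laser and 157 and 167 in SePC-La. Isg15, a ubiquitin-like protein, was the single member at the criterion, with 25.1 and 11.1 FPKM in Laser and 36.9 and 45.8 in SePC-La. In PC-La it had 40.3 and 38.5. MHC class II genes did not hold, with a median of 0.34, -0.25 against Laser 1 and 0.92 against Laser 2, while that of PC-La minus Laser was 1.81. Cd74, the class II invariant chain, had 194 and 55.3 FPKM in Laser, 182 and 141 in SePC-La and 475 and 599 in PC-La.

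Of 19 tested immune checkpoint ligands and costimulators (26 in the table), 6 (31.6%) were higher and 0 lower at an unadjusted p under 0.05 and 1, Ido1, met the criterion. Ido1 passed the filter through the SePC-La samples, where it is high, so its call is a description and no support. The list median was 0.30, 0.14 against Laser 1 and 0.40 against Laser 2, and 0.22 without the filter on low values. Cd274, which encodes PD-L1, the ligand that restrains T cells, had 9.99 and 8.01 FPKM in Laser, 18.7 and 15.3 in SePC-La and 11.3 and 14.8 in PC-La, a log2 difference of 0.85 (standard error 0.19) from Laser. Both SePC-La values lay above all 4 others. Cd47, the signal that restrains phagocytes, had 43.5 and 41.6 FPKM in Laser and 44.6 and 49.6 in SePC-La and did not pass. T cell and cytotoxic genes did not hold, with a median of 0.08, -0.15 against Laser 1 and 0.32 against Laser 2 over 20 tested genes, and 17 of the 37 listed were under the filter. Gzmb, the cytotoxic protease granzyme B, had 12.4 and 13.2 FPKM in Laser and 9.93 and 18.4 in SePC-La.

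Macrophage identity genes had a median of -0.38 over 27 tested genes (30 in the table), -0.26 against Laser 1 and -0.48 against Laser 2, yet 4 (14.8%) had both SePC-La values below both Laser values, less than the 25.6% of all genes. The median was -0.71 without SePC-La 2 and 0.06 without SePC-La 1, so its direction rested on SePC-La 1. Mertk, the receptor by which macrophages take up dying cells, was even between samples, with 10.5 and 8.86 FPKM in Laser, 4.13 and 4.83 in SePC-La and 9.83 and 9.28 in PC-La. Its log2 difference from Laser was -0.96 (standard error 0.14), just short of the fold change of the criterion. Cd14, the endotoxin coreceptor, was higher, with 59.7 and 58.7 FPKM in Laser and 80.1 and 84.0 in SePC-La. Lyz2, the most expressed member, had 681 and 1409 FPKM in Laser and 599 and 746 in SePC-La. Ms4a4a, named after its values were seen, had 35.7 and 46.7 FPKM in Laser, 23.2 and 28.6 in SePC-La and 16.7 and 15.9 in PC-La.

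**Figure D4:**
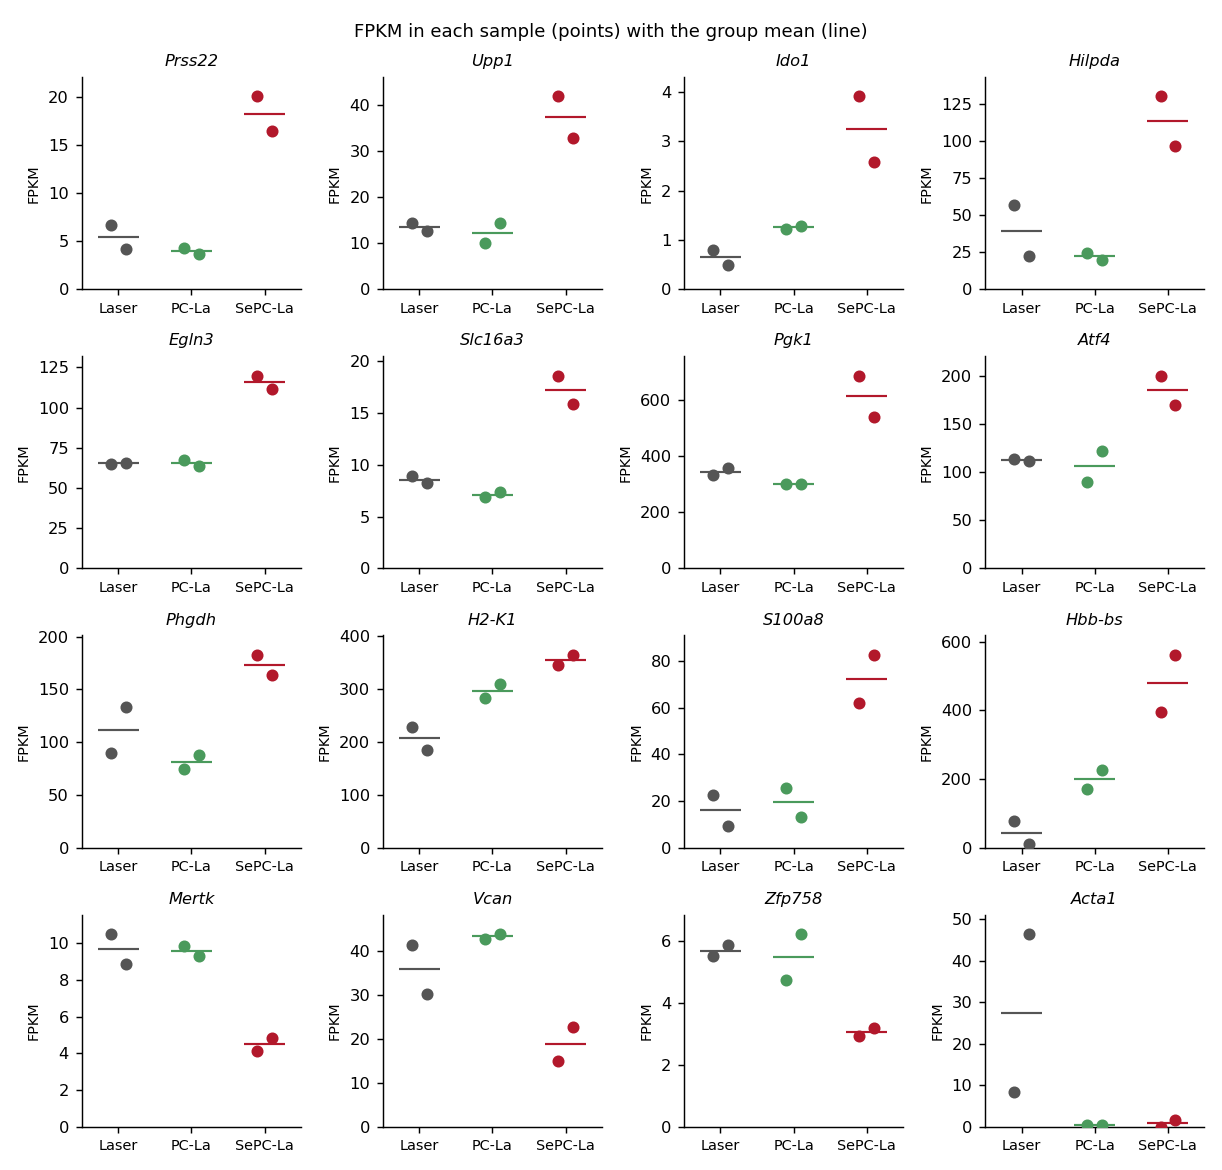
Each panel shows the FPKM of 1 gene on a linear axis from 0, with a point for each of the 2 samples of Laser, PC-La and SePC-La and a line at the group mean. Egln3, Slc16a3, Pgk1 and Upp1 show both SePC-La points above all others, Mertk and Zfp758 below all others, and Acta1 is highest in Laser 2.

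Red cell genes that passed the filter were higher in SePC-La by wide margins. Of 7 tested erythroid genes (15 in the table), 5 rose, 6 had an unadjusted p under 0.05 and all 7 had a higher mean, with a median of 2.85, 2.10 against Laser 1 and 3.59 against Laser 2, and 1.33 for PC-La minus Laser. Hbb-bs, the adult beta globin, had 77.0 and 9.15 FPKM in Laser, 395 and 562 in SePC-La and 172 and 226 in PC-La, a rise of 4.07 (standard error 0.98) over Laser. Alas2, the erythroid enzyme that begins heme synthesis, had 1.48 and 0.660 FPKM in Laser and 5.59 and 8.94 in SePC-La and rose by 1.99 (standard error 0.28). The Laser samples were lowest and the SePC-La samples highest in both. The globin genes are near copies (Hba-a1 and Hba-a2, Hbb-bs and Hbb-bt), so their reads may be split. The 8 listed genes under the filter were not tested, and without the filter the list median was 0.35. Genes that are low in Laser passed the filter through the phycocyanin groups, so the count is a description and no support. The part of blood content in the other differences was not tested.

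Contractile genes of skeletal muscle made up most of the lower side. Of 17 tested (35 in the table), 8 (47.1%) fell at the criterion and 13 had both SePC-La values below both Laser values, with a median of -1.79, -0.64 against Laser 1 and -2.89 against Laser 2, and -1.84 for PC-La minus Laser. Without the filter on low values it was -0.96. Members such as Myh4 passed the filter through the Laser samples, where they are high, so the counts over the 17 are a description and no support. Acta1, skeletal alpha actin, had 8.28 and 46.4 FPKM in Laser, 0 and 1.75 in SePC-La and 0.375 and 0.435 in PC-La. Myh4, a fast myosin heavy chain, had 2.03 and 14.6 FPKM in Laser and 0 and 0.324 in SePC-La. Cryab, a small heat shock protein abundant in muscle, had 2.24 and 3.83 FPKM in Laser and 0.328 and 0.813 in SePC-La, and fell by 1.35 on the log2 scale (standard error 0.27). Laser 2 had the highest value in each, and PC-La was as low as SePC-La. The part of muscle tissue in the Laser samples in these differences was not tested. Myh1, Mylpf, Tnni2 and Tnnt3 of the list, and Fhl1 outside it, were likewise highest in Laser 2. Tpm2 and Eno3, which other cells also express, overlapped between the groups.

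Of the lower genes outside muscle, Col6a2, a chain of the microfibril collagen VI, had 29.6 and 32.6 FPKM in Laser, 8.91 and 17.3 in SePC-La and 35.5 and 30.7 in PC-La, and fell by 1.25 on the log2 scale (standard error 0.28). Islr, a secreted leucine-rich protein of mesenchymal cells, had 29.8 and 28.8 FPKM in Laser, 2.45 and 12.3 in SePC-La and 40.6 and 41.1 in PC-La. Both were even between the Laser samples and lower in SePC-La 1 than in SePC-La 2. Lrrn4cl had 5.51 and 13.6 FPKM in Laser and 2.45 and 3.57 in SePC-La, and Itga10, a collagen-binding integrin, 1.68 and 4.49 in Laser and 0.694 and 1.12 in SePC-La. The Laser values of Itga10 alone carry it past the filter on the mean, so its difference is a description and no support.

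Collagens as a list did not hold, with a median of -0.08, -0.49 against Laser 1 and 0.41 against Laser 2 over 20 tested genes (44 in the table). Col3a1, the fibrillar collagen III, had 713 and 214 FPKM in Laser, 72.8 and 396 in SePC-La and 895 and 869 in PC-La. Fibroblast and mural cell genes did not hold either, with a median of -0.25, -0.65 against Laser 1 and 0.40 against Laser 2 over 22 tested genes. Lum, the keratan sulfate proteoglycan lumican, had a mean of 166 ± 186 FPKM in Laser and 60.9 ± 55 in SePC-La (SD, n = 2 each), overlapping widely. Vcan, the matrix proteoglycan versican, was lower at an unadjusted p under 0.05, with 41.5 and 30.3 FPKM in Laser and 14.9 and 22.8 in SePC-La. Mast cell genes were split within both groups: Mcpt4, a mast cell protease, had 39.4 and 0.205 FPKM in Laser and 0.312 and 31.6 in SePC-La. The list median was -0.29, -2.54 against Laser 1 and 1.69 against Laser 2.

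**Figure D5:**
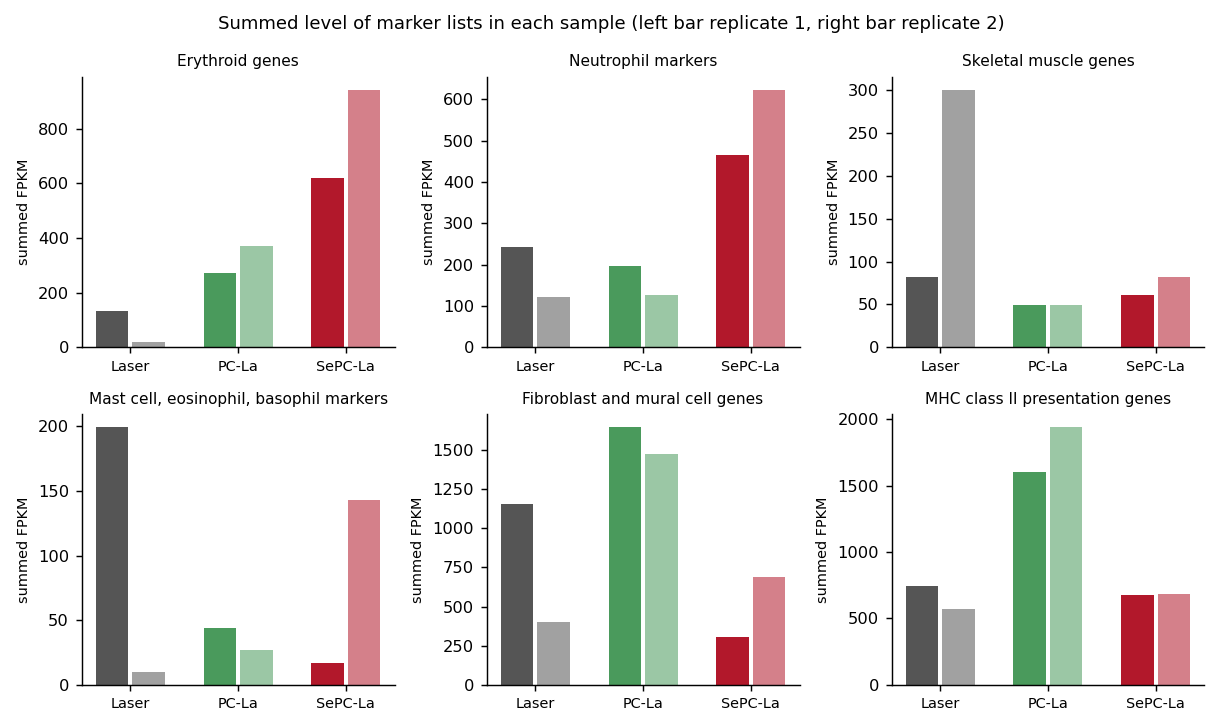
Each panel shows the summed FPKM of all listed markers of a cell type, with a bar for each of the 2 samples of a group, replicate 1 on the left. Erythroid and neutrophil sums are highest in both SePC-La samples, the muscle sum in Laser 2, and the mast cell sum in Laser 1 and SePC-La 2.

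Selenoprotein genes, which the treatment might touch through its selenium, had a median close to that of all genes. Of 26 tested (31 in the table), 1 was higher and 0 lower at an unadjusted p under 0.05, 3 (11.5%) had both SePC-La values above both Laser values and 4 (15.4%) both below. The median was -0.09, against -0.06 for all genes. It was -0.09 against Laser 1 and -0.08 against Laser 2, where all genes had -0.08 and -0.04. The list thus held lower by the rule above, by narrow margins, but its median was 0.07 without SePC-La 1. Gpx1, the cytosolic glutathione peroxidase, had 208 and 232 FPKM in Laser, 201 and 246 in SePC-La and 217 and 230 in PC-La. Gpx4, which reduces lipid peroxides and restrains ferroptosis, had 115 and 182 FPKM in Laser, 149 and 157 in SePC-La and 125 and 116 in PC-La. Both overlapped between the groups, with log2 differences of 0.02 (standard error 0.15) and 0.08 (standard error 0.22). Selenoh, a nuclear selenoprotein, was the higher one, with 60.4 and 74.2 FPKM in Laser and 88.1 and 86.3 in SePC-La.

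Of 33 tested genes of the NRF2 antioxidant and glutathione list (36 in the table), 5 (15.2%) were higher and 0 lower at an unadjusted p under 0.05, with a median of 0.23, 0.25 against Laser 1 and 0.20 against Laser 2. It was 0.086 without SePC-La 2 and 0.42 without SePC-La 1. The median of PC-La minus Laser was -0.29. Sod2, the mitochondrial superoxide dismutase, had 12.7 and 13.3 FPKM in Laser, 21.3 and 20.4 in SePC-La and 9.60 and 10.4 in PC-La, a log2 difference of 0.64 (standard error 0.12) from Laser. Fth1 and Ftl1 encode the ferritin chains that store iron. Fth1 had 770 and 566 FPKM in Laser and 892 and 1043 in SePC-La, and Ftl1 had 384 and 268 in Laser and 436 and 524 in SePC-La. All 3 were lower in PC-La than in SePC-La.

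Genes of cell death did not hold as a list. Of 23 tested caspase, gasdermin and inflammasome genes (31 in the table), 4 (17.4%) were higher and 2 (8.7%) lower at an unadjusted p under 0.05, against 4.9% and 7.24% of all genes. The median was -0.03, -0.12 against Laser 1 and 0.15 against Laser 2. Xiap, which inhibits caspases, was lower, with a mean of 12.7 ± 0.309 FPKM in Laser and 9.23 ± 0.646 in SePC-La (SD, n = 2 each). Ripk3, the kinase of necroptosis, was higher, with 4.61 and 3.36 FPKM in Laser and 6.70 and 7.05 in SePC-La. Mlkl, the pore protein that Ripk3 activates, had 39.4 and 50.1 FPKM in Laser and 60.0 and 50.3 in SePC-La and did not pass.

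Autophagy and endoplasmic reticulum lists held lower by small amounts. Both SePC-La values lay below both Laser values in 12 of 34 autophagy genes (35.3%), against 25.6% of all genes. The same was so in 10 of 27 endoplasmic reticulum genes (37.0%). Core autophagy genes had a median of -0.13 over 34 tested, -0.13 against Laser 1 and -0.15 against Laser 2, with 3 (8.82%) lower at an unadjusted p under 0.05 against 7.24% of all genes, so the share was near that of all genes. The median was -0.059 with median-ratio scaling. Ulk2, a starting kinase of autophagy, had 9.84 and 10.1 FPKM in Laser and 5.36 and 7.44 in SePC-La. Of 27 endoplasmic reticulum chaperone and unfolded protein response genes, 4 (14.8%) were lower and 0 higher, with a median of -0.17, -0.25 against Laser 1 and -0.08 against Laser 2, and 11 had a higher and 16 a lower mean. Sel1l, of the machinery that clears misfolded proteins, had 17.1 and 15.2 FPKM in Laser and 9.87 and 10.2 in SePC-La. Dnajb9, a cochaperone, had 19.3 and 15.9 FPKM in Laser and 12.6 and 12.4 in SePC-La. P4hb and Pdia3, the most expressed disulfide isomerases, had log2 differences of -0.08 (standard error 0.16) and 0.04 (standard error 0.21).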

How the data were processed

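RNA of 6 LLC tumor samples was sequenced, 2 each of Laser, PC-La and SePC-La. The authors deposited 1 table of FPKM values, settled from the values: with GENCODE M21 exon lengths (GRCm38), 97.8% of expressed genes gave whole reads within 0.02 in all 6 samples. The submitters' processing notes name HISAT2 2.0.5, HTSeq 0.9.1, DESeq 1.30.0 and the build mm9. No exon length was found for 104 genes, and 22 symbols occur more than once. limma 3.58.1 (R 4.3.3) was fitted to log2(FPKM + 1) for genes averaging 1 FPKM or more, with a mean per group over all 6 samples, trend and robust moderation (6.4 degrees of freedom) and Benjamini-Hochberg adjustment, and was tested on simulated data. The fit shares 1 spread over the groups. The comparison and the lists were chosen with earlier results of these data known. Named were at the criterion, the 12 genes of each direction lowest in p (target genes of the study and unnamed models left out), and in a list the 2 most expressed members and the 2 with the smallest p; other names are marked, except Psat1 and Vegfa, given to spell out a short count after their values were seen, and Krt8, Hmga2 and Sftpc, given as a tissue check. The motif TGATGNAA, limma voom on recovered reads and a crossed replicate block were chosen after seeing the data. Some items are not reported here. Python 3.11.15, pandas 2.3.3, NumPy 2.4.6 and matplotlib 3.10.9 were used.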

Additional observations from a re-analysis of the deposited data

How the results depend on the processing

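With 2 samples a group, Laser 1 and Laser 2 far apart and unknown relation between samples, single genes carry little certainty, and weakly expressed genes rest on few reads. Of 115 genes named and tested, 99 kept their direction in every alternative, and none (0) of the 87 with an unadjusted p under 0.05 reversed, but only 68 of these kept it in every alternative that left no sample out. Many were named for a small p in these same samples, so the kept directions are no support. The criterion gave 59 higher and 15 lower genes. The lower count was 54 with a pseudocount of 0.1, 5 with a minimum mean of 5 FPKM and 46 with voom on the recovered reads (84 higher), an alternative chosen after seeing the data, and genes below both Laser samples numbered 1706 with the minimum mean of 5. Leaving out 1 sample gave 50 to 179 higher genes, without Laser 2 and Laser 1, and 11 to 159 lower, without SePC-La 1 and Laser 2.

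The replicate numbers did not pair the samples: deviations from the group means correlated at -0.43 between Laser 1 and SePC-La 1, 0.09 between Laser 1 and PC-La 1 and -0.18 between PC-La 1 and SePC-La 1. With a replicate block the criterion gave 61 higher and 20 lower genes. With the numbers crossed in SePC-La, chosen after seeing the data, the block gave 63 higher and 12 lower.

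List medians moved as follows, and the cause was not tested. With a pseudocount of 0.1 they were 0.82 for HIF targets, 0.38 for checkpoint genes, 4.14 for erythroid genes and -0.30 for zinc finger genes. Without a filter they were 0.24 for angiogenic ligands, 0.65 for neutrophil, 0.22 for checkpoint, 0.35 for erythroid and -0.19 for zinc finger genes. With a minimum mean of 5 they were 0.81 for HIF targets, 0.14 for checkpoint, 3.90 for erythroid and 0.52 for endothelial genes. Median-ratio scaling gave 0.37 for checkpoint, 0.27 for nuclear respiratory, -0.18 for zinc finger and -0.059 for autophagy genes. Quantile normalization gave 0.34 for checkpoint, 0.077 for cytosolic ribosomal, -0.15 for zinc finger and 0.39 for endothelial genes. Voom gave 0.82 for HIF targets, 0.38 for checkpoint, 4.20 for erythroid, -3.16 for muscle and -0.32 for zinc finger genes.

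With 1 sample left out, medians ran from 0.50 to 0.89 for HIF targets, 0.37 to 0.82 for angiogenic ligands, 0.17 to 0.53 for synthetases, 0.17 to 0.47 for serine and one-carbon genes, 0.70 to 1.80 for neutrophil, 0.18 to 0.89 for cytokine, 0.14 to 0.40 for checkpoint, 0.16 to 0.43 for cytosolic ribosomal, 0.048 to 0.35 for nuclear respiratory, 0.28 to 0.41 for endothelial and -0.12 to 0.17 for caspase genes. Macrophage identity genes ran from -0.71 to 0.059 and selenoproteins from -0.14 to 0.071, both positive only without SePC-La 1.

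Log2 differences of 16 named genes, all with an unadjusted p of 0.05 or more, reversed. Median-ratio scaling gave Krt8 0.029, P4hb 8.2e-05, Tpm2 0.014. Quantile normalization gave Gpx1 -0.19, Gpx4 -0.053, Pdia3 -0.14, Vim -0.072. Pseudocount of 0.1 gave Mcpt4 0.061. Voom on recovered reads gave Mcpt4 0.54. With 1 sample left out, Ccl6 ran from -0.63 to 0.95, Cd74 ran from -0.27 to 1.52, Col3a1 ran from -2.41 to 0.021, Eng ran from -0.35 to 0.024, Eno3 ran from -0.37 to 0.68, Gpx1 ran from -0.12 to 0.16, Gpx4 ran from -0.24 to 0.41, Gzmb ran from -0.33 to 0.49, Hmga2 ran from -0.027 to 0.33, Krt8 ran from -0.31 to 0.21, Lum ran from -2.63 to 0.42, Mcpt4 ran from -2.63 to 2.44, P4hb ran from -0.25 to 0.087, Pdia3 ran from -0.22 to 0.31 and Tpm2 ran from -0.20 to 0.071.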
